A study of Mus musculus with 18 samples.

Results

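The T cell receptor complex and its co-receptors were followed across pancreas from 18 mice through 10 genes, chosen by name from the 25651 genes of the deposited table. They are the CD3 chain genes Cd3d, Cd3e and Cd3g, the receptor constant segments Trac, Trbc1 and Trbc2, the co-receptor genes Cd4, Cd8a and Cd8b1, and the kinase gene Lck. All 10 were found, each in 1 row of the table. The series, on innate immune regulators in pancreatic cancer, holds 5 mice labelled KPC ASC KO, 7 labelled KPC and 6 labelled WT (wild type). All mice were 20 weeks old, kept under specific-pathogen-free conditions and of a mixed 129Sv x C57BL/6 background. The name KPC is commonly used for mice that develop pancreatic cancer from alleles switched on by Cre recombinase, although the labels spell out neither the alleles nor the promoter that drives Cre. The KPC ASC KO mice are labelled as knockouts of ASC, the inflammasome adaptor encoded by Pycard, in addition to KPC. In which cells Pycard was deleted is not in the labels, nor are sex, litter, batch or histology.

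The T cell receptor recognises a peptide held by an MHC molecule on another cell. Its alpha and beta chains end in constant segments and carry almost no signalling tail, so they depend on the CD3 chains, which hold the motifs that are phosphorylated when the receptor is engaged. CD4 binds MHC class II and CD8 binds MHC class I, and both bring the kinase LCK to the CD3 tails. In healthy pancreas T cells are sparse, and in pancreatic tumours they can gather in the stroma and in lymphoid aggregates.

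Libraries held 374432 to 647947 counts in KPC ASC KO mice, 452472 to 1626977 in KPC mice and 294077 to 416879 in WT mice, each count standing for 1 captured RNA molecule. Levels are given as CPM, which is a gene's counts for every 1000000 counts of a library whose total was scaled by the trimmed mean of M values (TMM). On this scale 1 count was worth 1.74 to 3.95 CPM in KPC ASC KO libraries, 0.291 to 2.24 CPM in KPC libraries and 3.19 to 4.85 CPM in WT libraries. A gene listed at 0 in a WT library could therefore still stand at up to 9.56 to 14.5 CPM, the value of 3 counts, and this floor covers counting error only. Pycard averaged 18.6 ± 10.9 CPM (SD, n = 5) in KPC ASC KO mice, 65.6 ± 22.6 CPM (SD, n = 7) in KPC mice and 55.1 ± 6.38 CPM (SD, n = 6) in WT mice. It was still counted in all 5 KPC ASC KO libraries, at 3 to 12 counts, and the highest of them, at 32.0 CPM, was just below the lowest KPC library, at 32.9 CPM. Acinar enzyme genes, the defining markers of exocrine pancreas, took 34.4% to 60.0% of all counts in KPC ASC KO mice, 4.61% to 42.3% in KPC mice and 51.3% to 62.4% in WT mice. In whole tissue, fewer T cells and less RNA per T cell cannot be told apart.

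The 3 CD3 genes are neighbours on chromosome 9 of GRCm38. Cd3g (ENSMUSG00000002033) lies at 44969572 to 44980431, Cd3d (ENSMUSG00000032094) at 44981786 to 44987339 and Cd3e (ENSMUSG00000032093) at 44998740 to 45009627. Cd3g and Cd3d are read in opposite directions from starts 1355 bases apart, and the starts of Cd3d and Cd3e lie 27825 bases apart. Their promoters are shown because the 3 chains assemble into 1 complex with the receptor and their genes lie side by side. Within the 7 KPC mice the ranks of the 3 genes followed each other with Spearman coefficients of 0.571 to 0.857, and over the other 11 mice the coefficients were -0.064 to -0.029. In those 11 mice Cd3d, Cd3e and Cd3g had at most 6, 2 and 5 counts in a library, so these ranks hold many ties and much counting error. The 2 ranges can therefore not be set against each other. Each promoter window runs from 250 bases before to 50 bases after the start of the gene in RefSeq (GRCm38.p6) and is written 5′ to 3′ in the direction of the gene. Capitals mark GGAA, the core letters bound by ETS family factors, and TTCC, the same letters on the other strand.
Cd3d, chr9:44981536-44981835, plus strand: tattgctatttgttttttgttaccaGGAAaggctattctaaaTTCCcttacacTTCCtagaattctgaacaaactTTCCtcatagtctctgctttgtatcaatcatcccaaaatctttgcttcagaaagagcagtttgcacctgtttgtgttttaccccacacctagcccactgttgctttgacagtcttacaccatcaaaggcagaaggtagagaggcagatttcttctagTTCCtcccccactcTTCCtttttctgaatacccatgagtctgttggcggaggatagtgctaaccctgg
Cd3g, chr9:44980382-44980681, minus strand: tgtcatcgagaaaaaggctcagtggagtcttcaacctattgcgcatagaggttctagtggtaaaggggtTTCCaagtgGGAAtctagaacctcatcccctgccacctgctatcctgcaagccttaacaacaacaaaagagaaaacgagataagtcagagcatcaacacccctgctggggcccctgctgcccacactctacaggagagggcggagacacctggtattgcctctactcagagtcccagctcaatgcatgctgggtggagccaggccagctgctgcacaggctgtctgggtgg
Cd3e, chr9:45009562-45009861, minus strand: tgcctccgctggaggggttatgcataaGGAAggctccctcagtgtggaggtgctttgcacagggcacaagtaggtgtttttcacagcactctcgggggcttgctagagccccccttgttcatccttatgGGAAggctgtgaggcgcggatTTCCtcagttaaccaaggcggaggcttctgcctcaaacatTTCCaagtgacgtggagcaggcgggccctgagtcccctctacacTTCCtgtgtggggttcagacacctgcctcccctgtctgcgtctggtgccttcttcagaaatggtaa

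Counting both strands, GGAA occurred 6 times in the Cd3d window, 2 times in the Cd3g window and 5 times in the Cd3e window. At least 1 match is the rule rather than the exception, since 96.0% of 32851 mouse promoter windows of this length hold one, with a median of 3. RefSeq windows were matched for 5 of the 10 genes, the others being Cd8a and Lck, and all 5 held GGAA. The RUNX core TGTGGT was found for 1 of the 5 genes, Lck, against 16.8% of all windows, and the GATA letters AGATAA for 1, Cd3g, against 11.2%. The E-box letters CANNTG were found for 5 of 5 genes, against 72.3% of all windows. A match of letters is a description and not a measured binding site.

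**Figure D1:**
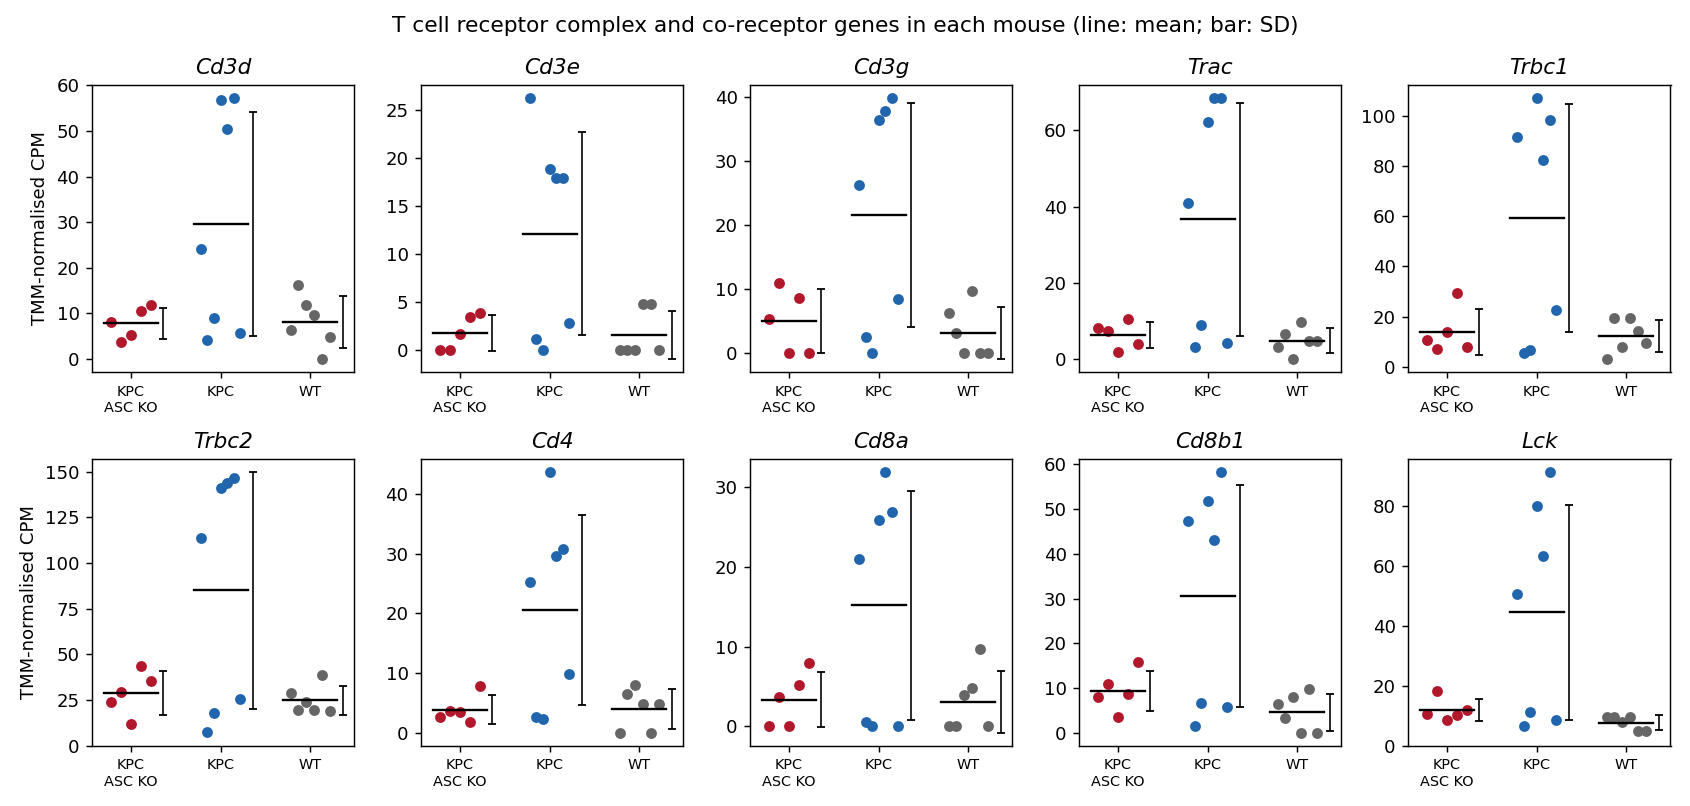
TMM-normalised CPM of each of the 10 genes (one panel each) in every mouse of KPC ASC KO, KPC and WT pancreas, with the group mean (line) and SD (bar). In every panel 4 of the 7 KPC mice stand above the other mice, and the remaining KPC mice lie among or close to the KPC ASC KO and WT mice.

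The CD3 chain genes were at a few molecules per library in most mice and at many more in a subset of KPC mice. Cd3e, the chain used most often to mark T cells, was at 0, 0, 1.74, 3.47 and 3.95 CPM in the 5 KPC ASC KO mice. In KPC mice it ranged from 0 to 26.3 CPM with a median of 17.95 CPM, and in WT mice from 0 to 4.85 CPM with 4 of 6 libraries at 0. KPC mice 40, 89, 145 and 154, at 26.3, 18.9, 18.0 and 17.95 CPM, stood above every other mouse, and KPC mice 43, 48 and 210, at 1.16, 0 and 2.82 CPM, lay within the range of the WT mice.

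Cd3d was at 8.01, 3.66, 5.21, 10.4 and 11.85 CPM in KPC ASC KO mice. In KPC mice it ranged from 4.08 to 57.2 CPM with a median of 24.2 CPM, and in WT mice from 0 to 16.1 CPM with a median of 8.03 CPM. Cd3g was at 5.34, 10.97, 0, 8.68 and 0 CPM in KPC ASC KO mice, at 0 to 39.8 CPM with a median of 26.3 CPM in KPC mice, and at 0 to 9.70 CPM with a median of 1.61 CPM in WT mice. For both genes the same 4 KPC mice were above all others, and the groups overlapped through KPC mice 43, 48 and 210.

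The constant segments anchor the receptor chains in the membrane and are shared by all clones that use them. Trac, the single constant segment of the alpha chain (ENSMUSG00000076928, chromosome 14, 54220521 to 54224206), was at 8.01, 7.32, 1.74, 10.4 and 3.95 CPM in KPC ASC KO mice. In KPC mice it ranged from 3.20 to 68.5 CPM with a median of 41.0 CPM, and in WT mice from 0 to 9.70 CPM with a median of 4.81 CPM. KPC mice 40, 89, 145 and 154 were at 41.0, 62.2, 68.5 and 68.45 CPM, and no other mouse passed 10.4 CPM.

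Trbc1 (ENSMUSG00000076490, 41538218 to 41539881) and Trbc2 (ENSMUSG00000076498, 41546730 to 41548352) are alternative constant segments of the beta chain on chromosome 6. Their annotated transcripts are 87.7% identical over 681 aligned bases, and 28.4% of the Trbc1 and 30.6% of the Trbc2 stretches of 101 bases, the length of the sequenced read, occur in both, so the division of counts between them is uncertain. Trbc1 was at 10.7, 7.32, 13.9, 29.5 and 7.90 CPM in KPC ASC KO mice. In KPC mice Trbc1 ranged from 5.53 to 107 CPM with a median of 82.5 CPM, and in WT mice from 3.19 to 19.4 CPM with a median of 12.03 CPM.

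Trbc2 was at 24.0, 29.3, 12.2, 43.4 and 35.6 CPM in KPC ASC KO mice. In KPC mice Trbc2 ranged from 7.28 to 146 CPM with a median of 113.6 CPM, and in WT mice from 19.1 to 38.7 CPM with a median of 21.6 CPM. On the TMM scale the lowest Trbc2 level of all 18 mice was in a KPC mouse, number 43, and the 4 highest were also in KPC mice. Scaled by library totals alone, mouse 43 was at 15.4 CPM. On that scale WT mice 1197, 1213 and 1238, at 14.7, 12.5 and 10.3 CPM, and KPC ASC KO mouse 377, at 12.7 CPM, were lower. The share of Trbc2 in the summed Trbc1 and Trbc2 counts was 63.7% in KPC ASC KO mice (exact 95% binomial interval 53.0% to 73.6%, 91 counts), 59.1% in KPC mice (56.7% to 61.6%, 1608 counts) and 67.3% in WT mice (53.3% to 79.3%, 55 counts). These intervals overlap, and they cover counting error only.

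The variable and joining segments, which are rearranged in each T cell clone and lie far from the poly(A) tail at which these libraries were primed, gave few counts. At the alpha locus 6 counts fell on the 25 listed segments other than Trac in KPC ASC KO mice, 103 counts in KPC mice and 0 counts in WT mice. Traj18, a joining segment used by the invariant receptor of natural killer T cells among others, had 0 counts in KPC ASC KO mice, 38 counts spread over 6 of 7 KPC mice and 0 counts in WT mice. The gamma delta constant segment Trdc, which marks the other T cell lineage, had 1 count in KPC ASC KO mice, 13 counts in 5 of 7 KPC mice and 0 counts in WT mice. The KPC group also held the deepest libraries, and these counts were not tested.

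The co-receptor genes lie on chromosome 6. Cd4 (ENSMUSG00000023274, 124864692 to 124888221), which in mice is also transcribed in some dendritic cells, was at 2.67, 3.66, 3.48, 1.74 and 7.90 CPM in KPC ASC KO mice. In KPC mice Cd4 ranged from 2.24 to 43.8 CPM with a median of 25.25 CPM, and in WT mice from 0 to 7.94 CPM with a median of 4.81 CPM. Cd4 was the only one of the 10 genes for which 1 more KPC mouse, number 210 at 9.88 CPM, stood above all KPC ASC KO and WT mice.

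Cd8a (ENSMUSG00000053977, 71373427 to 71379173) encodes the chain found in every CD8 dimer, and Cd8b1 (ENSMUSG00000053044, 71322788 to 71337494) encodes its partner on conventional CD8 T cells. Cd8a was at 0, 3.66, 0, 5.21 and 7.90 CPM in KPC ASC KO mice, at 0 to 31.9 CPM with a median of 21.0 CPM in KPC mice, and at 0 to 9.67 CPM with a median of 1.99 CPM in WT mice. It was listed at 0 in 2 KPC ASC KO, 2 KPC and 3 WT libraries. Cd8b1 was at 8.01, 10.97, 3.48, 8.68 and 15.8 CPM in KPC ASC KO mice, at 1.46 to 58.4 CPM with a median of 43.0 CPM in KPC mice, and at 0 to 9.67 CPM with a median of 4.80 CPM in WT mice.

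Lck (ENSMUSG00000000409, chromosome 4, 129548344 to 129573641) was at 10.7, 18.3, 8.69, 10.4 and 11.85 CPM in KPC ASC KO mice. In KPC mice it ranged from 6.70 to 91.45 CPM with a median of 50.5 CPM, and in WT mice from 4.78 to 9.70 CPM with a median of 8.75 CPM. Lck was detected in all 18 libraries, and its highest level outside the KPC group, 18.3 CPM, was below the 50.5 CPM of KPC mouse 40, the lowest of the 4 high KPC mice.

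The 4 KPC mice stood out in the sum over the 10 genes as well. The sum was 77.4, 95.1, 50.4, 132 and 107 CPM in the 5 KPC ASC KO mice. In KPC mice 40, 89, 145 and 154 it was 467, 623, 569 and 636 CPM, in KPC mice 43, 48 and 210 it was 35.2, 62.7 and 93.1 CPM, and in WT mice it ran from 47.8 to 92.1 CPM with a median of 77.7 CPM. The group means were 92.3 ± 30.7 CPM (SD, n = 5) in KPC ASC KO mice, 355 ± 279 CPM (SD, n = 7) in KPC mice and 74.3 ± 16.7 CPM (SD, n = 6) in WT mice, and no KPC mouse lay between 93.1 and 467 CPM.

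**Figure D2:**
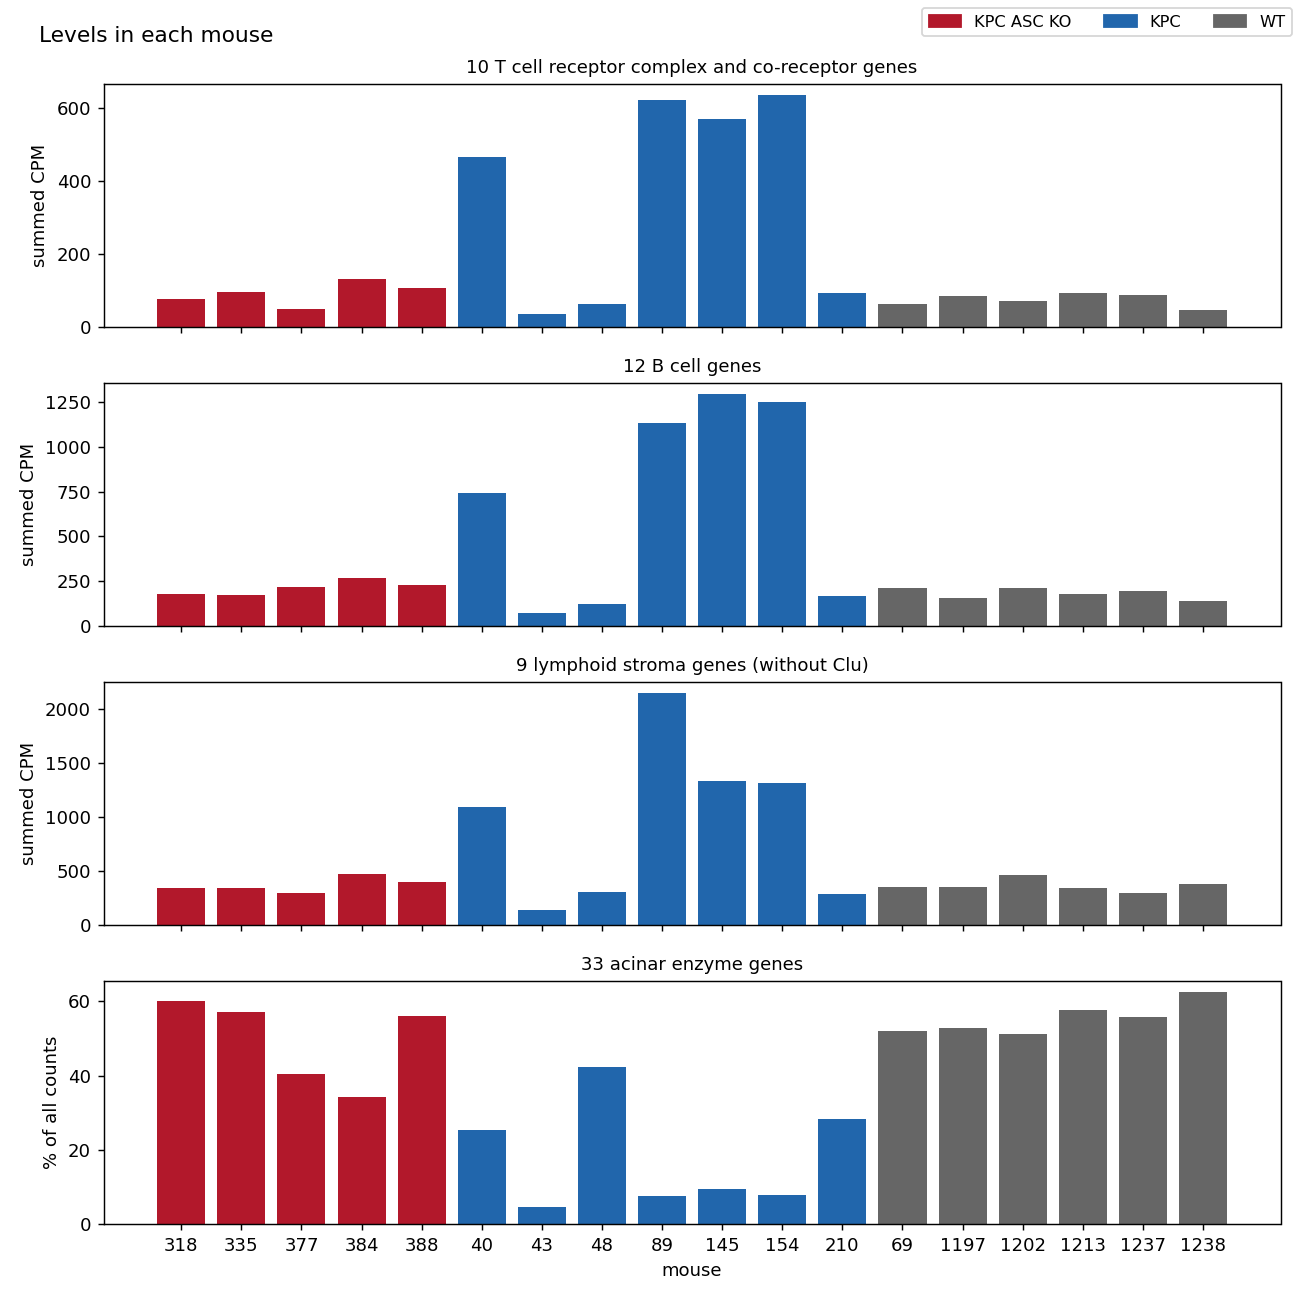
Summed TMM-normalised CPM per mouse of the 10 genes, of 12 B cell genes and of 9 lymphoid stroma genes (the list without Clu), and the percentage of counts on 33 acinar enzyme genes, for KPC ASC KO, KPC and WT mice. KPC mice 40, 89, 145 and 154 are high in the upper 3 panels, and of the 3 KPC mice that are low there, mouse 43 has the lowest acinar share, 4.61%.

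The B cell genes were high in the same 4 KPC mice. The 12 B cell genes summed to 176 to 271 CPM in KPC ASC KO mice, 75.1 to 1293 CPM in KPC mice and 139 to 210 CPM in WT mice, and KPC mice 40, 89, 145 and 154 were at 743, 1133, 1293 and 1248 CPM. The 10 lymphoid stroma genes, which include the T zone chemokines Ccl19 and Ccl21a, summed to 3018 to 5998 CPM in KPC ASC KO mice, 3283 to 5766 CPM in KPC mice and 2875 to 5879 CPM in WT mice. On this full list KPC mice 40, 89, 145 and 154, at 3283 to 4300 CPM, were below KPC mice 43, 48 and 210, at 4962 to 5766 CPM. Clu, which other cells also express, averaged 4016 ± 1267 CPM (SD, n = 5) in KPC ASC KO mice, 3551 ± 1524 CPM (SD, n = 7) in KPC mice and 3512 ± 1040 CPM (SD, n = 6) in WT mice, and it was left out after the values were seen. Without Clu, KPC mice 40, 89, 145 and 154 were at 1089 to 2141 CPM and KPC mice 43, 48 and 210 at 142 to 305 CPM, and the list summed to 296 to 474 CPM in KPC ASC KO mice, 142 to 2141 CPM in KPC mice and 295 to 461 CPM in WT mice. All 12 B cell genes and all 10 lymphoid stroma genes had counts. The 10 macrophage genes summed to 812 to 2795 CPM in KPC ASC KO mice, 1822 to 2820 CPM in KPC mice and 809 to 1054 CPM in WT mice, and the 7 KPC mice were not spread in these sums as they were in the B cell sums. The part that lymphoid tissue attached to the pancreas or lying in it had in the T cell values was not tested.

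Within the KPC group the 10 genes were among the most variable in the table. The SD of log2 CPM between the 7 KPC mice was 1.36 to 1.85 for the 10 genes, at the 98.5 to 99.8 percentile of 17363 genes, whose median SD was 0.458. Among KPC ASC KO mice it was 0.337 to 1.18 against a median of 0.587, and in WT mice 0.362 to 1.04 against a median of 0.721. The ranks of the 10 genes followed each other within the 7 KPC mice, with Spearman coefficients of 0.571 to 1.0 over the 45 pairs and a median of 0.857. Over the other 11 mice the coefficients ran from -0.387 to 0.82 with a median of 0.096. Those 11 libraries held only 10 to 76 counts of the 10 genes each, so their ranks carry much counting error. The points of all pairs share libraries and depth, so these coefficients are a description.

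**Figure D3:**
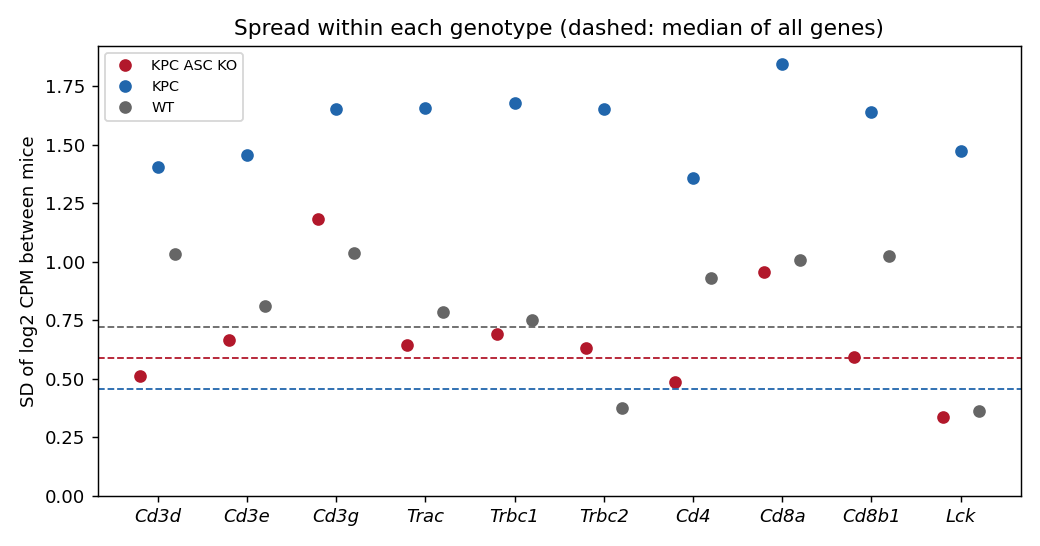
SD of log2 CPM between mice for each of the 10 genes in KPC ASC KO, KPC and WT pancreas, with dashed lines at the median SD of all 17363 genes in each group. The KPC points, at 1.36 to 1.85, lie above both other groups for every gene.

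The KPC against WT comparison asked whether receptor and co-receptor transcripts differ in pancreas with the KPC alleles. Of the 10 genes, Lck, Cd4, Cd3e and Trac were higher in KPC mice by the edgeR quasi-likelihood test with Benjamini-Hochberg adjustment, and Trbc1 was called in 1 of the 2 fits made. The filter by group asks for enough counts in at least as many libraries as the smallest group holds, whichever group they come from. It left only Trbc1 and Trbc2 of the 10, which could thus pass through their high KPC libraries. Of these 2 genes 1 passed, where 30.0% of the 6920 genes kept were called, 14.6% higher and 15.4% lower. A filter on the summed count over all 18 libraries, blind to group, kept all 10, and 4 passed, where 14.4% of 17363 genes were called, 8.66% higher and 5.78% lower. In that fit DESeq2 called 9 of the 10 higher, while limma-voom called 0 and edgeR on only the KPC and WT mice called 0. Of all genes, DESeq2 called 1314 higher there, limma-voom 1019 and edgeR on only those mice 1308. Trbc1 and Trbc2 are given from the fit filtered by group and the other 8 genes from the fit with the group-blind filter.

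Trbc1 averaged 59.1 ± 45.4 CPM in KPC mice (SD, n = 7) and 12.3 ± 6.55 CPM in WT mice (SD, n = 6), with a log2 fold change of 2.32 (SE 0.77, edgeR adjusted p = 0.0317). The filter by group did not keep Trbc1 without KPC mice 40, 89, 145 and 154 together, and in the fit with the group-blind filter it was not called (log2 fold change 2.47, SE 0.81, edgeR adjusted p = 0.0531). Lck averaged 44.5 ± 35.8 CPM in KPC mice and 7.75 ± 2.37 CPM in WT mice, with a log2 fold change of 2.66 (SE 0.75, edgeR adjusted p = 0.0243). For Cd4 the means were 20.6 ± 15.9 CPM in KPC mice and 4.004 ± 3.31 CPM in WT mice, with a log2 fold change of 2.53 (SE 0.77, edgeR adjusted p = 0.0277). These 3 genes stand for a beta chain segment, the kinase and the MHC class II co-receptor.

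Cd3e averaged 12.2 ± 10.6 CPM in KPC mice and 1.61 ± 2.50 CPM in WT mice, with a log2 fold change of 3.24 (SE 1.06, edgeR adjusted p = 0.0404). Its WT value rests on 2 counts in all, and the ratio of pooled levels was 8.94 with an interval of 2.43 to 74.6 from counting error alone. Trac averaged 36.7 ± 30.7 CPM in KPC mice and 4.83 ± 3.24 CPM in WT mice, with a log2 fold change of 3.14 (SE 0.97, edgeR adjusted p = 0.0404).

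The other 5 genes did not pass. Trbc2, at 85.1 ± 64.9 CPM in KPC mice and 24.8 ± 7.75 CPM in WT mice, had a log2 fold change of 1.81 (SE 0.67, edgeR adjusted p = 0.0513). The values were 1.99 for Cd3d, 2.87 for Cd3g, 2.88 for Cd8b1 and 2.66 for Cd8a on the log2 scale, with edgeR adjusted p of 0.0860, 0.0783, 0.0626 and 0.178. The median log2 fold change over the 10 genes was 2.67 in the fit with the group-blind filter, beside 0.37 over all 17363 genes. A p that misses the threshold does not show that these genes were alike in KPC and WT mice.

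For none of the 10 genes did the KPC and WT groups separate, while 2.60% of all genes were higher in every KPC mouse than in every WT mouse. The 4 calls of the fit with the group-blind filter were each lost when some single mouse was left out. So was the call for Trbc1, made only in the fit filtered by group. The edgeR adjusted p was then 0.0501 to 0.106. The call for Trbc1 went when WT mouse 69, 1202, 1237 or 1238 was left out, and likewise with KPC mouse 89 or 154. Lck lost it without WT mouse 69, 1197, 1202, 1237 or 1238, Cd4 without WT mouse 69, 1197, 1213, 1237 or 1238, and Cd3e without WT mouse 69, 1197, 1202 or 1238 or any of KPC mice 40, 89, 145 and 154. Trac lost it without any of the 6 WT mice or of those 4 KPC mice. Left out singly, KPC mouse 43 added calls for Trbc2, Cd3d, Cd3g and Cd8b1 (edgeR adjusted p 0.00196 to 0.0146), mouse 48 for Trbc2, Cd3g and Cd8b1 and mouse 210 for Trbc2, Cd3d and Cd8b1. These were the KPC mice with the lowest sums of the 10 genes. Leaving one out raises the KPC mean by construction.

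Without KPC mice 40, 89, 145 and 154 together, a choice made after their levels were seen and on those same levels, edgeR called none of the 10 genes in the KPC against WT comparison, and 0 had an unadjusted p under 0.05. The log2 fold changes then ran from -2.24 for Cd8a to 0.25 for Cd4, and Trbc1 no longer passed the filter. This choice lowers the KPC values by construction, so these values are not a test. Scaling by library totals instead of TMM moved the median log2 fold change of all 6920 genes, KPC over WT, to 1.301, with 5320 genes called higher and 199 lower in place of 1010 and 1063. With that scaling the fit with the group-blind filter called all 10 genes higher in KPC mice. Of all 17363 genes it called 9817 higher and 313 lower there. The median was 3.76 over the 10 genes beside 1.45 over all 17363 genes.

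**Figure D4:**
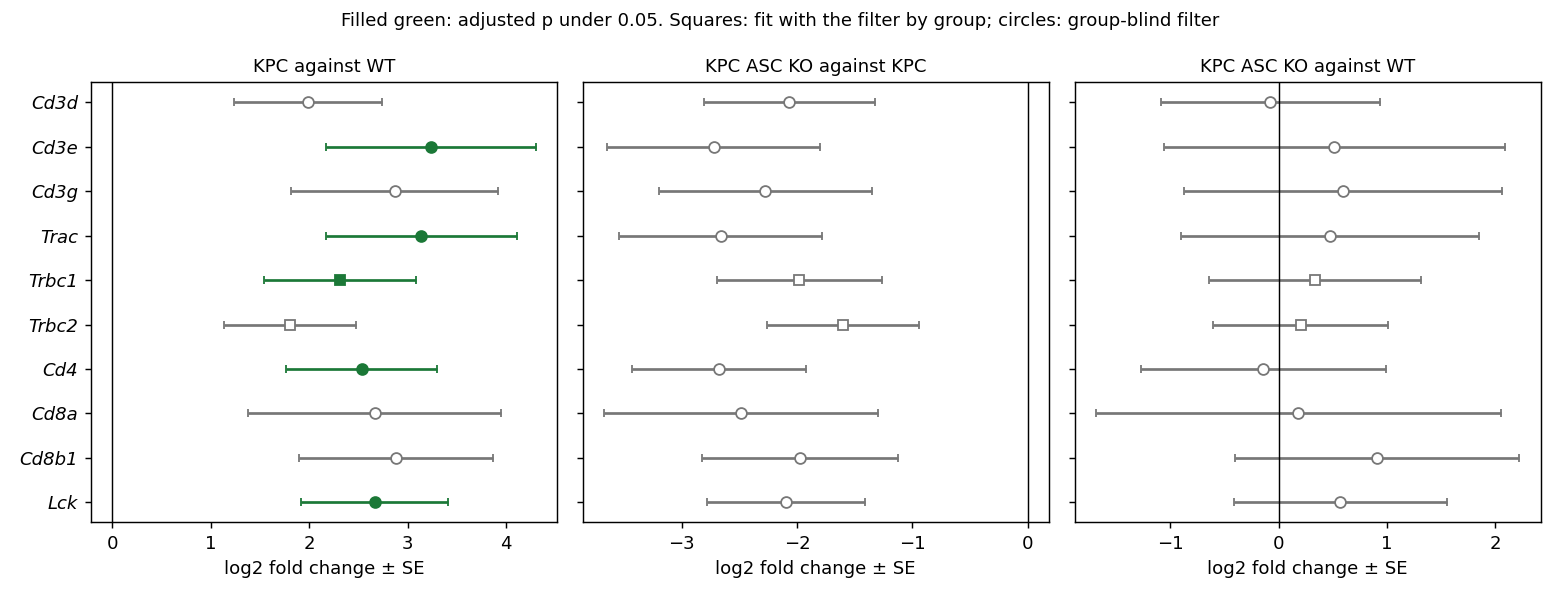
Log2 fold change of each gene with its SE in the 3 comparisons, with filled green symbols for edgeR adjusted p under 0.05, squares for the fit filtered by group and circles for the fit with the group-blind filter. In KPC against WT the circles of Lck, Cd4, Cd3e and Trac and the square of Trbc1 are filled, where Trbc1 is not called in the fit with the group-blind filter (edgeR adjusted p = 0.0531), and in the 2 comparisons with KPC ASC KO none is.

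The KPC ASC KO against KPC comparison asked whether the same transcripts differ with the ASC knockout. All 10 log2 fold changes were negative, from -1.60 for Trbc2 to -2.72 for Cd3e, and none passed the test. In the fit filtered by group 0 of 2 genes were called by edgeR, where 9.44% of all genes were called, 2.69% lower and 6.75% higher. In the fit with the group-blind filter edgeR called 0 of 10, where 2.50% of all genes were called, 0.801% lower and 1.70% higher. At an unadjusted p under 0.05 that fit gave 9 of the 10 genes, and the fit filtered by group gave 2 of 2. In the fit filtered by group 1832 of 6920 genes had such a p, in either direction. The share of all genes was not counted in the fit with the group-blind filter. With that filter DESeq2 called 4 of the 10 lower, beside 210 of all genes. Limma-voom called 0 of the 10, beside 107 of all genes lower.

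Cd4 came closest, at 3.89 ± 2.37 CPM in KPC ASC KO mice (SD, n = 5) and 20.6 ± 15.9 CPM in KPC mice (SD, n = 7), with a log2 fold change of -2.67 (SE 0.75, edgeR adjusted p = 0.0544). Trbc1 averaged 13.9 ± 9.14 CPM in KPC ASC KO mice and 59.1 ± 45.4 CPM in KPC mice, with a log2 fold change of -1.98 (SE 0.72, edgeR adjusted p = 0.0884). Cd3e averaged 1.83 ± 1.86 CPM in KPC ASC KO mice and 12.2 ± 10.6 CPM in KPC mice, with a log2 fold change of -2.72 (SE 0.92, edgeR adjusted p = 0.109). For these genes the SD between KPC mice was close in size to the KPC mean.

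Lck averaged 11.99 ± 3.70 CPM in KPC ASC KO mice and 44.5 ± 35.8 CPM in KPC mice, with a log2 fold change of -2.10 (SE 0.68, edgeR adjusted p = 0.111). Cd8a averaged 3.35 ± 3.42 CPM in KPC ASC KO mice and 15.2 ± 14.4 CPM in KPC mice, with a log2 fold change of -2.49 (SE 1.19, edgeR adjusted p = 0.272). The median over the 10 genes was -2.19, beside -0.25 over all 17363 genes. The KPC mice are in both this comparison and the one with WT, so the 2 sets of values are not independent.

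All 5 KPC ASC KO mice lay below KPC mice 40, 89, 145 and 154 for each of the 10 genes, and none of the 10 genes separated the groups as a whole, while 1.01% of all genes were lower in every KPC ASC KO mouse than in every KPC mouse. Leaving out KPC mouse 43 alone, the deepest library, led to calls for 9 of the 10 genes, all but Cd8a, with edgeR adjusted p of 0.00369 to 0.0475. Without KPC mouse 48, Trbc1, Cd3e and Cd4 were called (0.0115 to 0.0360), and without KPC mouse 210, Cd4 and Lck (0.0363 to 0.0405). Mouse 43 also had the lowest sum of the 10 genes, 35.2 CPM, and mice 48 and 210 were low too. Leaving out a low KPC mouse raises the KPC mean by construction. Without KPC mice 40, 89, 145 and 154 together, chosen for their high levels of these genes, edgeR called 0 of the 10 genes. In the fit with the group-blind filter 2 had an unadjusted p under 0.05. The sign turned for 8 genes, with log2 fold changes up to 2.42 for Cd8a and a value of -0.37 for Cd4, while Trbc1 did not pass the filter by group. Leaving out the mice with the highest levels lowers the KPC values by construction, so these turns are not a test. KPC mice 43, 48 and 210 had 2, 0 and 0 counts of Cd8a. Scaling by library totals moved the median of all 6920 genes to -1.06, with 151 genes called higher and 4702 lower in place of 467 and 186, and then called all 10 genes lower in KPC ASC KO mice.

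The KPC ASC KO against WT comparison set KPC alleles without ASC beside healthy pancreas. None of the 10 genes was called. The log2 fold changes ran from -0.14 for Cd4 to 0.91 for Cd8b1, with SE of 0.81 to 1.87. By edgeR 0 of 2 genes were called in the fit filtered by group, where 0% of all genes were called, and 0 of 10 in the fit with the group-blind filter, where 0.00576% were. At an unadjusted p under 0.05 edgeR gave 0 genes, and DESeq2 and limma-voom called 0. Lck averaged 11.99 ± 3.70 CPM in KPC ASC KO mice and 7.75 ± 2.37 CPM in WT mice, with a log2 fold change of 0.57 (SE 0.98, edgeR adjusted p = 0.921). The pooled Trbc2 level was 1.14 times as high in KPC ASC KO as in WT mice, with an interval of 0.745 to 1.78 from counting error alone. With 187 counts over the 10 genes in all KPC ASC KO libraries and 111 in all WT libraries, even a 4-fold difference could be missed. In counts simulated for this comparison, the fit with the group-blind filter recovered 4 of 100 2-fold changes and 28 of 100 4-fold changes. The fit filtered by group, simulated apart with its own random draw of genes, recovered 24 of 100 and 77 of 100. The changed genes were drawn over all levels, so these rates are not those of the 10 genes.

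The balance of the co-receptors was read as the share of Cd4 in the summed Cd4, Cd8a and Cd8b1 counts. Genes are not captured equally, so this is a share of counts and not of cells. It was 27.0%, 36.1%, 28.3% and 26.6% in KPC mice 40, 89, 145 and 154, which had 89 to 244 such counts each. It was 56.3% in KPC mouse 43 (exact 95% binomial interval 29.9% to 80.3%) and 63.6% in KPC mouse 210 (30.8% to 89.1%), on 16 and 11 counts. In KPC mouse 48 Cd4 had 1 of 4 such counts (0.631% to 80.6%). The pooled share was 23.3% in KPC ASC KO mice (9.93% to 42.3%, 30 counts), 31.3% in KPC mice (28.0% to 34.7%, 751 counts) and 35.3% in WT mice (14.2% to 61.7%, 17 counts), and these intervals overlap. They cover counting error only and not the spread between mice. Most of the KPC counts came from mice 40, 89, 145 and 154.

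**Figure D5:**
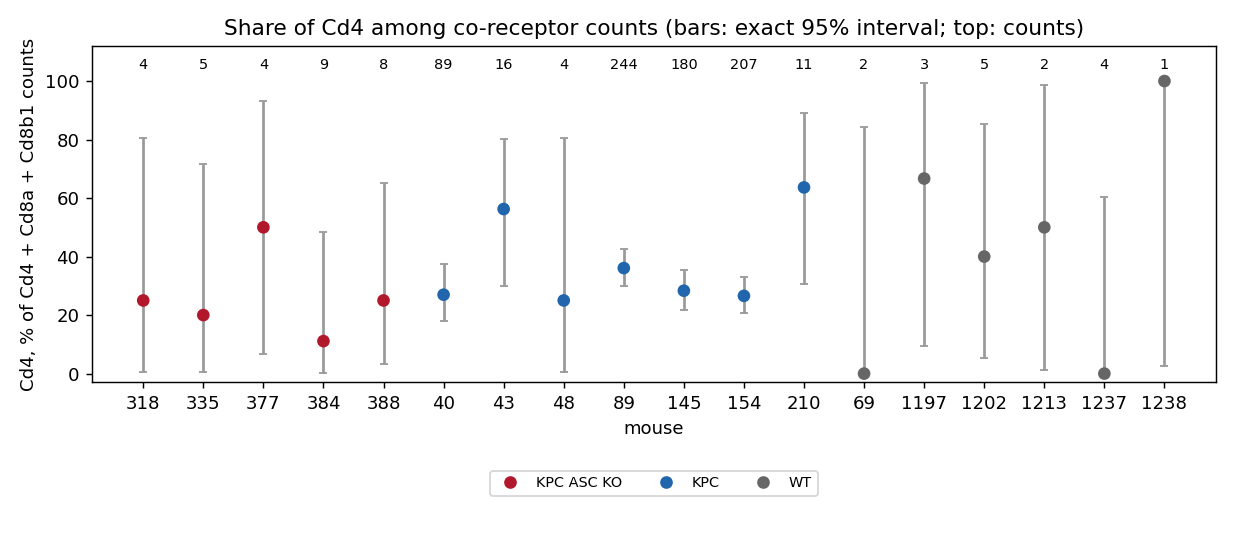
Share of Cd4 in the summed Cd4, Cd8a and Cd8b1 counts of each mouse, with exact 95% binomial intervals and the number of counts above each point. The 4 KPC mice with 89 or more counts lie between 26.6% and 36.1%, and most other intervals span more than that whole range.

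Genes that act just below the receptor were mostly not called. Of 24 genes of proximal receptor signalling, 6 were higher in KPC than in WT mice by edgeR, beside the 8.66% of all genes, with a median log2 fold change of 2.002. Vav1, an exchange factor phosphorylated after receptor engagement, averaged 30.2 ± 14.1 CPM in KPC mice and 9.59 ± 5.20 CPM in WT mice (log2 fold change 1.79, SE 0.46, edgeR adjusted p = 0.00729). Csk, the kinase that holds LCK inactive, averaged 54.8 ± 23.2 CPM in KPC mice and 23.0 ± 10.3 CPM in WT mice (log2 fold change 1.47, SE 0.35, edgeR adjusted p = 0.00435). Both are expressed in other leukocytes too.

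Lat, the adaptor that LCK and ZAP70 signalling reaches, averaged 38.4 ± 29.7 CPM in KPC mice and 8.43 ± 6.22 CPM in WT mice and did not pass (edgeR adjusted p = 0.0666). Fyn, a kinase related to LCK that many cell types express, averaged 46.6 ± 21.97 CPM in KPC mice and 53.0 ± 13.6 CPM in WT mice (edgeR adjusted p = 1.00). Only Vav1 of the 24 was lower in KPC ASC KO than in KPC mice by edgeR, at 9.25 ± 7.24 CPM in KPC ASC KO mice and 30.2 ± 14.1 CPM in KPC mice (log2 fold change -1.64, SE 0.44, edgeR adjusted p = 0.0354). Of all genes 0.801% were lower in that comparison.

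Of 20 genes of the T cell surface and of co-stimulation, 3 were higher in KPC than in WT mice, beside 8.66% of all genes. The median log2 fold change of the 20 was 1.96. Cd2, an adhesion receptor of T and natural killer cells, averaged 23.6 ± 16.8 CPM in KPC mice and 4.001 ± 3.74 CPM in WT mice (log2 fold change 2.71, SE 0.76, edgeR adjusted p = 0.0188). Thy1, which fibroblasts also express, averaged 169 ± 41.2 CPM in KPC mice and 47.8 ± 17.2 CPM in WT mice (log2 fold change 1.96, SE 0.29, edgeR adjusted p = 6.53e-05). In KPC ASC KO against KPC mice edgeR called 0 of the 20, with a median of -1.85, beside 0.801% of all genes lower. At an unadjusted p under 0.05, 14 of the 20 were lower, while DESeq2 called 0 and limma-voom 1 lower. Of all genes DESeq2 called 210 lower and limma-voom 107. The share of all genes at an unadjusted p was not counted in this fit.

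Of 14 naive and homing T cell genes edgeR called 7 higher in KPC than in WT mice, beside 8.66% of all genes. Their median was 2.01, and DESeq2 called 11 of the 14 and limma-voom 0. Of all genes DESeq2 called 1314 higher and limma-voom 1019. Ccr7, the receptor for CCL19 and CCL21, averaged 57.9 ± 46.9 CPM in KPC mice and 10.3 ± 3.63 CPM in WT mice (log2 fold change 2.63, edgeR adjusted p = 0.0572, not called). B cells also express Ccr7. Against KPC mice, 1 of the 14 was lower in KPC ASC KO mice, beside 0.801% of all genes.

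Of 12 tested cytotoxic effector genes 2 were higher in KPC than in WT mice, among them Klrd1, a lectin receptor subunit of natural killer and CD8 T cells, at 14.1 ± 13.8 CPM in KPC mice and 1.33 ± 2.12 CPM in WT mice (log2 fold change 3.505, SE 1.16, edgeR adjusted p = 0.0463). Ccl5, a chemokine of effector T cells, averaged 457 ± 351 CPM in KPC mice and 175 ± 34.2 CPM in WT mice and did not pass (edgeR adjusted p = 0.0857). Of 8 regulatory T cell genes 2 were higher. Beside these counts, 8.66% of all genes were higher. Of 7 checkpoint receptor genes edgeR called 0, with 2 higher at an unadjusted p under 0.05, 1 called by DESeq2 and 0 by limma-voom. DESeq2 called 1314 of all genes higher. Of 6 gamma delta T cell genes edgeR called 0, also at an unadjusted p under 0.05, as did DESeq2 and limma-voom. Capg, the regulatory T cell gene with the highest mean level, is also a macrophage gene, and it averaged 64.7 ± 5.89 CPM in KPC mice and 25.5 ± 5.88 CPM in WT mice (log2 fold change 1.45, edgeR adjusted p = 0.00118).

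All 9 listed genes for the MHC ligands of the co-receptors were higher in KPC than in WT mice by edgeR, beside 8.66% of all genes. The median log2 fold change of the 9 was 1.65, and limma-voom called 1 of them, beside 1019 of all genes higher. Cd74, the invariant chain of MHC class II, averaged 917 ± 299 CPM in KPC mice and 241 ± 27.4 CPM in WT mice (log2 fold change 2.08, SE 0.34, edgeR adjusted p = 0.000889). B2m, the light chain of MHC class I, averaged 693 ± 295 CPM in KPC mice and 307 ± 39.1 CPM in WT mice (log2 fold change 1.33, SE 0.29, edgeR adjusted p = 0.00447). Against KPC mice, 1 of the 9 was lower in KPC ASC KO mice, beside 0.801% of all genes. Between KPC ASC KO and WT mice edgeR called 0 of the 9, with 4 higher at an unadjusted p under 0.05 and 0 called by DESeq2 or limma-voom.

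Among genes of other cells, beside 8.66% of all genes, 3 of 12 B cell genes, 5 of 12 dendritic cell genes, 7 of 10 macrophage genes, 2 of 10 lymphoid stroma genes and 1 of 3 tested natural killer cell genes were higher in KPC than in WT mice. In KPC ASC KO against KPC mice edgeR called 0 of these genes, beside 0.801% of all genes lower. At an unadjusted p under 0.05, 9 B cell, 5 dendritic cell, 2 macrophage, 6 lymphoid stroma and 1 natural killer cell genes were lower. In that comparison DESeq2 called 2 of the B cell and 3 of the lymphoid stroma genes, and limma-voom called 0. Of all genes DESeq2 called 210 lower there and limma-voom 107. Of 33 acinar enzyme genes 31 were lower in KPC than in WT mice, beside 5.78% of all genes. In KPC ASC KO against KPC mice edgeR called 30 of the 33 higher in the fit filtered by group, with a median log2 fold change of 2.40, and 1 in the fit with the group-blind filter, where DESeq2 called 29 and limma-voom 30. Of all genes edgeR called 6.75% higher in the former fit and 1.70% in the latter. In the latter DESeq2 called 440 of all genes higher and limma-voom 548. The part of these genes of other cells in the values of the receptor genes was not tested.

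Over all 18 mice, the genes whose ranks most resembled the sum of the 10 were sought among 6442 genes, whose median Spearman coefficient was 0.015. These had passed the filter by group, and predicted genes and segments of immunoglobulins and T cell receptors were left out. That filter kept only 3 of the 20 T cell surface genes and 7 of the 24 signalling genes. Most T cell genes were thus not compared, and the ranking does not set them against genes of other cells. Among the 10 nearest were Sema4d (0.818), Jchain (0.814), Me2 (0.806), Ccr7 (0.80), Cd79b (0.798), Ptpn18 (0.796), Il4i1 (0.796), Ifi47 (0.794) and Mapre1 (0.779). Jchain, which links immunoglobulin chains in plasma cells, ran from 122 to 166 CPM in KPC ASC KO mice, 30.6 to 838 CPM in KPC mice and 71.0 to 131 CPM in WT mice. On this TMM scale the KPC group held the highest and the lowest Jchain level of the 18 mice.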

How the data were processed

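Polyadenylated RNA from 18 snap-frozen mouse pancreases was measured, 1 library per mouse, with groups taken from the genotype labels. Per the labels, poly(A) priming added a sample index of 8 bp and a molecular barcode (UMI) of 10 bp. The authors deposited whole-number UMI counts per gene, not normalised, for 25651 genes. Per the submitters' processing notes, builds GRCm38 and mm10 were used, with limma 3.50.0, edgeR 3.36.0 and R 4.1.2. The aligner, UMI rule and annotation were not given in the sources used here.

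From these counts edgeR 4.0.16 in R 4.3.3 gave TMM-scaled CPM and quasi-likelihood F tests (robust, no covariate) over all 18 mice in 3 groups, with Benjamini-Hochberg adjustment over all genes of the fit and a call at adjusted p under 0.05. filterByExpr with a minimum count of 10 kept 6920 genes, and a filter on at least 10 counts summed over all libraries, blind to group, kept 17363. Log2 CPM used a prior count of 2. Library totals ran from 294077 to 1626977 counts, so genes with few counts are measured roughly. No test was made of sums, lists or correlations. List counts come from the group-blind fit. The share of all its genes at an unadjusted p under 0.05 was not counted. List counts at that level therefore stand without a background. At an unadjusted p under 0.05, in either direction, the fit filtered by group gave 2851 of 6920 genes in KPC against WT. It gave 1832 in KPC ASC KO against KPC and 699 in KPC ASC KO against WT.

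Alternatives were no filter, 3 other scalings, DESeq2 1.42.0, limma-voom (limma 3.58.1), a fit of only the groups compared, Trbc1 and Trbc2 summed, each mouse left out and, chosen after seeing the data, 4 KPC mice left out together. The fits were tested on simulated counts. Each mouse is a separate animal. The 10 genes and the gene lists were chosen with earlier results of these data known. Named are all 10 genes, at most the 4 genes of highest mean CPM per list, the 10 genes nearest in rank to the sum of the 10 genes, and Pycard. Some genes that this rule names are not reported here. Trdc and Traj18 were named after their values were seen. Sequences are from RefSeq.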

Additional observations from a re-analysis of the deposited data

How the results depend on the processing

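No paired analysis was possible because no mouse number occurs in more than 1 group. In KPC against WT, the fit filtered by group called 1 of the 10 genes, and it called 4 with the group-blind filter, 3 with no filter, 2 with library totals, 2 with library totals without acinar enzymes, 2 with DESeq2, 0 with limma-voom, 0 with only the groups compared, 0 without KPC mice 40, 89, 145 and 154, and 0 to 2 with each mouse left out. The group-blind fit called 4, and it called 10 with library totals, 9 with library totals without acinar enzymes, 9 with DESeq2, 0 with limma-voom, 0 with only the groups compared, 0 without the 4 KPC mice, and 0 to 9 with each mouse left out. In KPC ASC KO against KPC, the fit filtered by group called 0, and it called 2 with no filter, 2 with library totals, 1 with library totals without acinar enzymes, 1 with DESeq2 and 0 to 2 with each mouse left out. There the group-blind fit called 0, and it called 2 with no filter, 10 with library totals, 1 with library totals without acinar enzymes, 4 with DESeq2 and 0 to 9 with each mouse left out. In KPC ASC KO against WT no alternative that was run called any of the 10 genes, and with only those groups none passed the filter by group. Calls over all genes moved too. In KPC against WT the group-blind fit called 1504 genes higher. It called 9817 with library totals, 2465 with library totals without acinar enzymes and 1314 with DESeq2. In KPC ASC KO against KPC it called 139 lower, and 6950, 563 and 210 with those settings. The fit filtered by group called 1010, 5320, 1990 and 1036 higher in the former, and 186, 4702, 856 and 266 lower in the latter. With no filter these were 1565 and 338. The cause of these changes was not tested.

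Without the 4 KPC mice, the log2 fold change of KPC against WT turned to -0.69 for Trbc2, -0.56 for Cd3d, -2.24 for Cd8a and -0.31 for Cd8b1. That of KPC ASC KO against KPC turned to 0.91 for Trbc2, 0.49 for Cd3d, 0.44 for Cd3e, 0.40 for Cd3g, 0.42 for Trac, 2.42 for Cd8a, 1.23 for Cd8b1 and 0.48 for Lck. The 4 mice were chosen for their high levels, so leaving them out lowers the KPC values by construction, and these turns are not a test. On the KPC side the Cd8a values rest on 2, 0 and 0 counts in mice 43, 48 and 210. In KPC ASC KO against WT, where no gene was called, the sign turned with library totals for Cd3d (0.10) and Cd4 (0.0175) and with limma-voom for Cd3d (0.0467), Cd3e (-0.0559) and Cd8a (-0.17). With each mouse left out, values there ran from -0.31 to 0.26 for Cd3d, -0.45 to 0.16 for Cd4, -0.29 to 0.91 for Cd8a, -0.19 to 0.56 for Trbc1 and -0.064 to 0.44 for Trbc2. With library totals without acinar enzymes the mean sum of the 10 genes moved to 149.5 CPM in KPC ASC KO, 720.6 CPM in KPC and 117.5 CPM in WT mice, and with library totals to 629.9 CPM in KPC and 52.9 CPM in WT mice. Without the 4 KPC mice it was 63.7 CPM in KPC mice. With each mouse left out it stayed at 82.4 to 102.8 CPM in KPC ASC KO, 308.5 to 408.5 CPM in KPC and 70.8 to 79.7 CPM in WT mice. WT libraries held 10 to 26 counts of the 10 genes, which limits every comparison with WT.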
